A study of Mus musculus with 8 samples.

Results

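Phospholipases cut membrane lipids and so stand at the entry of eicosanoid synthesis. The genes described here are 8 named members of this group, Pla2g4a, Pla2g4c, Pla2g3, Pla2g6, Pla2g7, Pla2g15, Pla2g16 and Plcb2, found by symbol among the 54532 genes of the table on stroke and among the 28229 genes of the table on RGFP109. Each symbol matched 1 protein-coding gene in each table.

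RNA from the brains of male C57BL/6 mice was sequenced, 2 libraries per group and 8 in all, with 15902013 to 21712033 reads assigned to genes per library. The PTS + RS group had a photothrombotic stroke, in which light closes cortical vessels after a photosensitive dye is given, followed by daily restraint stress. The RS group had restraint stress alone, and both groups are labelled cortex at Day 21. The RGFP109 and vehicle groups also carry the label PTS + RS and Day 21. RGFP109, used as an inhibitor of the histone deacetylase HDAC3, is described in the study as selective for HDAC1 and HDAC3. It was given under the skin once per day at 60 mg/kg for 2 weeks, and the vehicle libraries are titled NaCl. In these last groups replicate 1 is labelled cortex and replicate 2 amygdala, so a replicate number and a tissue label cannot be told apart. No source used here says whether 1 library is 1 mouse, and the study's methods speak of pooled samples. The p-values therefore set group differences against a spread between libraries, estimated in part over many genes, which may be technical. In the RGFP109 and vehicle groups that spread also includes the difference between tissue labels. In bulk tissue, fewer cells of a type and less RNA per cell cannot be told apart.

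The vehicle library labelled cortex stood apart. Its 10 olfactory bulb markers summed to 2032 CPM (counts scaled to library size), against 117 to 209 CPM in the other 7 libraries, and S100a5, a defining marker of that list, had 1131 reads there and 0 in each of the other 7. The amygdala-labelled libraries held more of the 10 cerebral cortex markers (1253 and 1475 CPM) than the cortex-labelled libraries of the same table (778 and 792 CPM), as well as more of the 10 amygdala markers (511 and 585 CPM against 235 and 292 CPM). The 10 choroid plexus markers summed to 1677 and 52.9 CPM in PTS + RS and to 1890 and 3918 CPM in RS, and to 17.6 to 1558 CPM in the 4 libraries of the other table.

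Phospholipase A2 enzymes release a fatty acid, often arachidonate, from the middle position of glycerophospholipids, and cyclooxygenases and lipoxygenases turn free arachidonate into prostaglandins and leukotrienes. Phospholipase C enzymes remove the head group instead and leave diacylglycerol, from which lipases can also free arachidonate. In brain, microglia, neurons and astrocytes all make eicosanoids, and the cyclooxygenase route is known for its part in inflammation after injury. Pla2g4a encodes the calcium-dependent cytosolic enzyme with a preference for arachidonate, and Pla2g4c a related cytosolic enzyme that does not need calcium. Pla2g6 is the main calcium-independent enzyme, Pla2g3 is secreted, Pla2g15 works in lysosomes and Pla2g16, named Plaat3 in RefSeq, is best known from fat tissue. Pla2g7 is a secreted hydrolase of platelet-activating factor (PAF) and oxidised phospholipids, and Plcb2 is a phospholipase C driven by G proteins and known from blood cells and taste cells.

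On GRCm38, the build of the files, Pla2g4a (ENSMUSG00000056220) lies on chromosome 1, 149829618 to 149961290, minus strand. Pla2g4c (ENSMUSG00000033847) lies on chromosome 7, 13324655 to 13360672, plus strand, and Pla2g3 (ENSMUSG00000034579) on chromosome 11, 3488284 to 3499350, plus strand. Pla2g6 (ENSMUSG00000042632) lies on chromosome 15, 79286228 to 79328390, minus strand, and Pla2g15 (ENSMUSG00000031903) on chromosome 8, 106150399 to 106164715, plus strand. Pla2g16 (ENSMUSG00000060675) lies on chromosome 19, 7557459 to 7588545, plus strand. Plcb2 and Pla2g7, placed further on, lie on chromosomes 2 and 17, so the 8 members sit on 8 chromosomes, and their values are read over whole exonic gene models.

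Promoters of Plcb2 and Pla2g7 are shown because these were the members that passed the test between PTS + RS and RS. They are RefSeq windows on build GRCm38.p6, from 250 bases before to 50 bases after the annotated start, written 5′ to 3′ on the gene's own strand. RefSeq windows were found for 7 of the 8 members, and Pla2g3 had none. Capitals mark GAGGAA, the core recognised by the myeloid factor PU.1, on either strand (TTCCTC where it lies on the other strand).
Plcb2, chr2:118728389-118728688, minus strand: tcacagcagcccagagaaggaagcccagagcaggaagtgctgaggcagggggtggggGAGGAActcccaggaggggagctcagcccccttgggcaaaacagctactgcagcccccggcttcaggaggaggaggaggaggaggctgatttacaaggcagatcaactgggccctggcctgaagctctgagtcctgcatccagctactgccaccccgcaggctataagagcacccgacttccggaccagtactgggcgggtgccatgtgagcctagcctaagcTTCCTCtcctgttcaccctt
Pla2g7, chr17:43568201-43568500, plus strand: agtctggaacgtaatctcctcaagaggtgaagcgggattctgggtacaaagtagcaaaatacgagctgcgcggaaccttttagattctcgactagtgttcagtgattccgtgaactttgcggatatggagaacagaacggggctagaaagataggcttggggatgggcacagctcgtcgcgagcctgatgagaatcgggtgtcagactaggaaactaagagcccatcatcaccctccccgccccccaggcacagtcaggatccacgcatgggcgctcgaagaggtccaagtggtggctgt

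The Plcb2 window held GAGGAA once on each strand, the first beginning 193 bases before the start base and the other 30 bases after it. The Pla2g7 window held none. Of all 32851 RefSeq promoter windows 28.3% held the hexamer on at least 1 strand, and of the members Plcb2 and Pla2g4c did. TATAAA, searched on both strands, occurred in 13.6% of all windows and, among the members, in a second window of Pla2g4a. These matches are letters in a window and were not tied to any binding measurement.

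In cortex after stroke and restraint stress, Plcb2 and Pla2g7 rose relative to restraint stress alone. Plcb2 was 2.69-fold higher (log2 fold change 1.43 ± 0.22, SE) and Pla2g7 1.51-fold higher (0.60 ± 0.09, SE), with 2 libraries per group. No member fell. The remaining 5 tested members did not pass, and Pla2g4c had too few reads for the test. The comparison asks what stroke adds to the stress response, and a gene passed where its edgeR quasi-likelihood p, adjusted by Benjamini-Hochberg over 17581 genes, was under 0.05. The 2 higher members among the 7 tested stand beside 2.96% of all tested genes that passed as higher and 0.586% that passed as lower. The members were chosen with earlier results of these data known. With a log2 fold change of at least 1 asked as well, 1 member, Plcb2, remained beside 2.12% of all genes.

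Plcb2 (ENSMUSG00000040061, GRCm38 chromosome 2, 118707517 to 118728438, minus strand) was read at 11.3 and 8.72 CPM in the PTS + RS libraries and at 4.08 and 3.34 CPM in the RS libraries. Both stroke libraries lay above both RS libraries. The reads behind these levels were 194 and 146 against 74 and 53. The 95% interval of the log2 difference ran from 0.90 to 1.96, and the adjusted p was 0.0196 in edgeR.

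Pla2g7 (ENSMUSG00000023913, chromosome 17, 43568098 to 43612201, plus strand) had 154 and 143 CPM in PTS + RS and 104.5 and 91.5 CPM in RS. The groups again did not overlap, and the gap between their nearest libraries was wider than the gap within either group. The 95% interval of the log2 difference was 0.38 to 0.81, with an edgeR adjusted p of 0.0178. An annotated antisense transcript, 1700071M16Rik, shares 11.0% of the exonic bases of Pla2g7. It had 45 to 101 reads in these 4 libraries against 1452 to 2645 for Pla2g7, and whether the authors' counting used strand is not given in the sources used here.

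Neither call held without RS replicate 2 or in the single fit over all 8 libraries. Without RS replicate 2 the edgeR adjusted p of Pla2g7 was 0.145 and that of Plcb2 0.0573, at log2 fold changes of 0.50 and 1.29. Over the 10 alternatives the adjusted p ranged from 4.62e-08 to 0.742 for Pla2g7 and from 8.41e-08 to 0.256 for Plcb2, with 8 of 10 under the threshold for each, and the log2 fold change stayed above 0 in all 10.

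Among the cytosolic enzymes, Pla2g4a was read at 5.94 and 5.26 CPM in PTS + RS and at 4.41 and 4.22 CPM in RS. The stroke libraries were higher without overlap, but the log2 difference of 0.38 ± 0.21 (SE) had an interval from -0.12 to 0.87 and an edgeR adjusted p of 0.406. Pla2g4c lay near the limit of detection, with 5 and 9 reads in PTS + RS and 2 and 0 reads in RS. Summed over libraries, 14 reads against 2 gave a ratio of 7.03 with an exact 95% counting interval of 1.61 to 63.7, which covers counting error only and not the spread between animals.

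The lysosomal gene Pla2g15 had 32.1 and 28.5 CPM in PTS + RS and 22.3 and 23.5 CPM in RS. It was higher in both stroke libraries, with a log2 difference of 0.40 ± 0.11 (SE), an interval of 0.13 to 0.67 and an edgeR adjusted p of 0.122. Its adjusted p ranged from 0.0223 to 0.581 over the 10 alternatives and was under the threshold in 1 of them, the fit without PTS + RS replicate 2. Pla2g6 and Pla2g3 overlapped between groups. Pla2g6 measured 20.9 and 24.6 CPM against 20.2 and 22.5 CPM, a log2 difference of 0.09 with an interval from -0.23 to 0.40. Pla2g3 measured 6.35 and 7.35 CPM against 6.39 and 6.93 CPM, a log2 difference of 0.04 with an interval from -0.41 to 0.49. Pla2g16 measured 32.2 and 26.3 CPM against 29.1 and 30.2 CPM, a log2 difference of -0.02 with an interval from -0.32 to 0.28. These intervals leave room for modest changes either way.

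Counting overlap alone, 4 of the 7 tested members (Pla2g4a, Pla2g7, Pla2g15 and Plcb2) were higher in both PTS + RS libraries than in either RS library, and none was lower. The untested Pla2g4c was also higher without overlap, on the few reads given above. Among all tested genes, 25.7% were higher and 24.5% lower without overlap. The median log2 difference of the 7 tested members was 0.38 and that of all tested genes -0.0015.

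**Figure D1:**
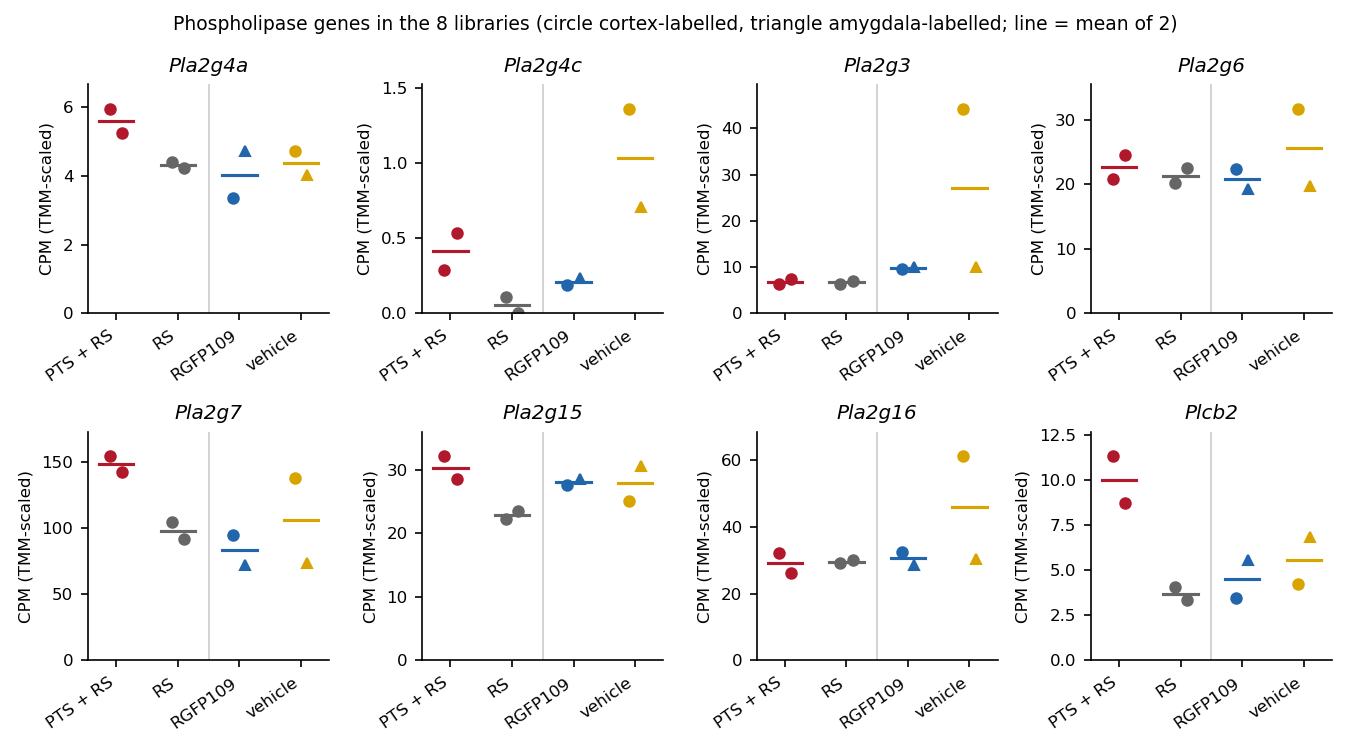
Level of each phospholipase gene (y axis, TMM-scaled CPM, each axis from 0) in the 8 libraries, by group (x axis), with circles for cortex-labelled and triangles for amygdala-labelled libraries and a line at the mean of 2. The PTS + RS points of Plcb2 and Pla2g7 lie above the RS points, and the vehicle library labelled cortex stands high for Pla2g3, Pla2g16 and Pla2g6; the 2 tables, left and right of the grey line, were scaled separately.

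Microglial genes were also higher in PTS + RS than in RS. All 15 of 15 microglia markers rose in PTS + RS, with a median log2 difference of 2.13, and their summed level was 1546 and 1795 CPM in PTS + RS against 357 and 396 CPM in RS, with no marker at 0 in any library. Of the 10 astrocyte markers 5 rose and none fell, and their sum went from 4551 and 4585 CPM in RS to 6721 and 7914 CPM in PTS + RS. Among all tested genes, 2.96% passed as higher and 0.586% as lower. None of the oligodendrocyte, neuron or endothelial markers passed. Neutrophil markers summed to 6.70 and 8.49 CPM in PTS + RS and to 0.504 and 1.10 CPM in RS, and the 1 marker of that list with enough reads for the test, Lcn2, which reactive astrocytes also express, rose with a log2 difference of 5.52. Of these 10 neutrophil markers, 4 and 5 were at 0 in the PTS + RS libraries and 5 and 7 in the RS libraries. Ly6g, Retnlg and Elane were at 0 in all 4 libraries, and each of the other markers had reads in at least 1 of them. All 10 choroid plexus markers had values below 0 in PTS + RS against RS, with a median log2 difference of -1.71, and none passed. The part of these cell types in the differences of Plcb2 and Pla2g7 was not tested.

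Across the 8 libraries, the 4 with the highest microglia marker sums were also the 4 with the highest Plcb2 level. In the second table the amygdala-labelled libraries had sums of 697 and 802 CPM and Plcb2 at 5.55 and 6.84 CPM, while the cortex-labelled ones had sums of 370 and 468 CPM and Plcb2 at 4.26 and 3.48 CPM. The vehicle library labelled cortex, the one with olfactory bulb markers, comes from mice labelled PTS + RS. Its Plcb2 level per length was 0.639 FPKM (fragments per kilobase scaled to library size). That level was near the RS libraries (0.505 and 0.616 FPKM) and below the PTS + RS libraries (1.32 and 1.70 FPKM). The amygdala-labelled vehicle library, also labelled PTS + RS, had 1.03 FPKM, between those groups. These values come from separately processed tables and are set side by side with no test.

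**Figure D2:**
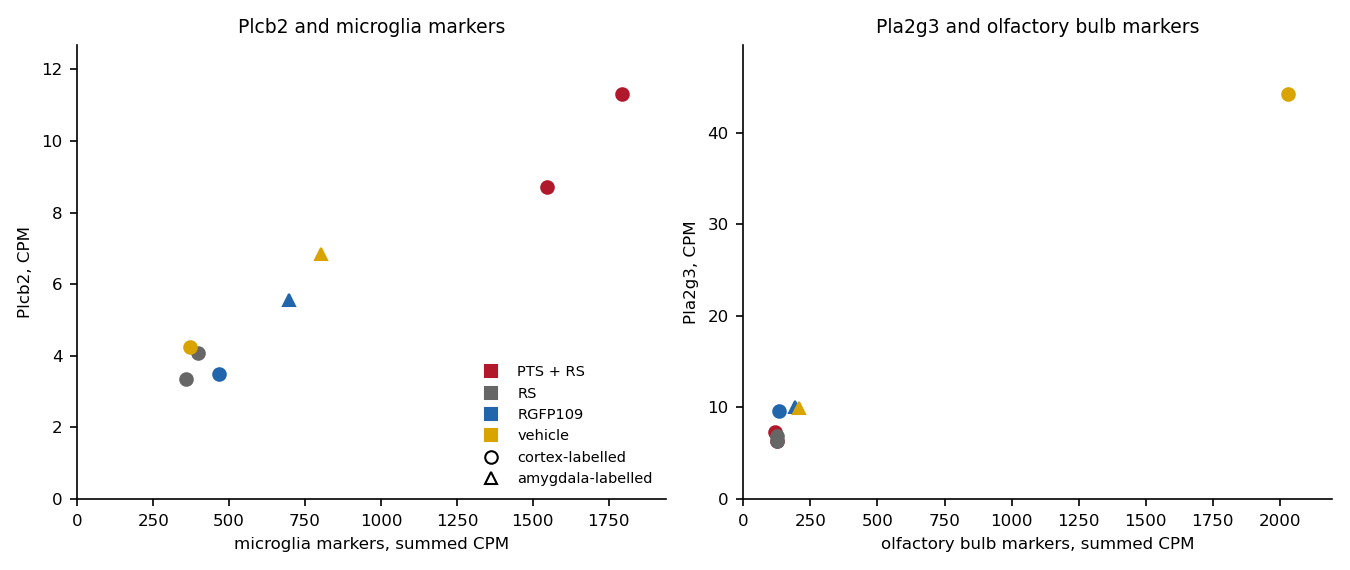
Left, Plcb2 (y axis, CPM) against the summed level of 15 microglia markers (x axis, CPM) in the 8 libraries. Right, Pla2g3 (y axis, CPM) against the summed level of 10 olfactory bulb markers (x axis, CPM), where the vehicle library labelled cortex (2032 CPM of markers, 44.2 CPM of Pla2g3) lies far from the other 7.

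Genes with the profile most like each called member were sought by the Euclidean distance of log2 CPM over the 8 libraries, centred within each table, among 16947 genes tested in both. Nearest to Plcb2 were H2-K1, a class I histocompatibility gene (distance 0.20), Cmklr1, the receptor for chemerin (0.23), and Gusb, a lysosomal glucuronidase (0.31). Nearest to Pla2g7 were Cmtm5 (0.22), Zfp97 (0.24) and Hsd17b11 (0.25). The log2 differences of the Plcb2 neighbours between PTS + RS and RS were 1.51, 1.56 and 1.63, and those of the Pla2g7 neighbours 0.51, 0.47 and 0.54. This is a description of shape over shared libraries.

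Around the members, the enzymes that act on their products or share their substrate were read from 7 further lists, with the stroke comparison first. These lists were chosen with earlier results of these data known. Of all tested genes, 2.96% passed as higher and 0.586% as lower. No other phospholipase A2 or PAF acetylhydrolase passed, of 13 tested and 22 listed. The lowest adjusted p in that list belonged to Pla2g5, a secreted phospholipase A2, at 1.17 ± 0.73 CPM in PTS + RS and 3.32 ± 1.27 CPM in RS (SD, n = 2; edgeR adjusted p 0.178). Among the other phospholipases C and D, 3 of 15 rose. They were Pld4, a myeloid member of the phospholipase D family (log2 fold change 2.17 ± 0.14, SE), Plcg2, which acts below immune receptors (1.21 ± 0.17, SE), and Plcd4 (0.79 ± 0.14, SE).

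Each of the next 2 lists held 1 gene that passed, beside 2.96% of all tested genes that passed as higher. Both genes have a known link to PAF, a substrate of Pla2g7, and a joint change around PAF was not tested. No other PAF acetylhydrolase passed. Lpcat2, which can make PAF from its lyso form, was the 1 of 12 reacylation genes that passed, at 24.1 ± 4.16 CPM against 12.1 ± 0.892 CPM (SD, n = 2), a log2 fold change of 0.99 with an edgeR adjusted p of 0.0218. Ptafr, the PAF receptor, was the 1 of 10 tested eicosanoid and PAF receptors that passed, at 5.00 ± 1.25 CPM against 1.42 ± 0.489 CPM (SD, n = 2), a log2 fold change of 1.80 with an edgeR adjusted p of 0.0404. Like Plcb2 and Pla2g7, neither passed without RS replicate 2, Ptafr did not pass in limma-voom, and their edgeR, DESeq2 or limma adjusted p reached 0.208 and 0.393 over the alternatives.

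Downstream of arachidonate, 4 of 13 prostanoid genes rose and none fell, beside 2.96% of all tested genes that passed as higher and 0.586% as lower. Tbxas1, the thromboxane synthase, had a log2 fold change of 2.06 ± 0.18 (SE). Hpgds, which makes prostaglandin D, had 1.67 ± 0.18 (SE), and Hpgd, which inactivates prostaglandins, had 1.44 ± 0.20 (SE). Ptgs1, the constitutive cyclooxygenase, had 0.80 ± 0.15 (SE), and its call was lost when either RS library was left out, as was that of Plcd4. No gene passed among the 7 tested of the diacylglycerol and monoacylglycerol route, where Abhd12 came closest (edgeR adjusted p 0.324), or among the 7 tested leukotriene and lipoxygenase genes, where Alox5ap did (edgeR adjusted p 0.0577). Medians of the log2 difference in these 7 lists lay between -0.12 (other phospholipases A2 and PAF acetylhydrolases) and 0.21 (other phospholipases C and D). No called gene of these lists passed in the single fit over all 8 libraries, nor did Plcb2 or Pla2g7.

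In the comparison of RGFP109 with vehicle, which asks what this inhibitor changes after stroke and stress, no member passed the edgeR test. All 8 were tested, and 0% of the 17565 tested genes passed in either direction. At an unadjusted p under 0.05, 88 genes were higher and 118 lower in edgeR, 1 of them a member, Pla2g4c. DESeq2 passed 1 gene of all, which was no member, and limma-voom passed 0. The fitted values lay below 0 for 7 members and above 0 for Pla2g15, with a median of -0.32 beside -0.016 for all tested genes.

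For several members the difference was large only against the vehicle library labelled cortex, the one with olfactory bulb markers. Pla2g3 was read at 9.56 and 10.03 CPM under RGFP109 and at 44.2 and 9.99 CPM in vehicle. Vehicle replicate 1 was thus the only library of the 4 that stood apart for this secreted enzyme. Its fitted log2 difference of -1.47 ± 0.70 (SE, edgeR adjusted p 1.00) became -0.03 without that library and -2.16 without vehicle replicate 2, where the edgeR adjusted p was 0.0499 in a range up to 1.00 over the alternatives. Inpp5j, an inositol phosphatase on the opposite strand that shares 8.54% of the exonic bases of Pla2g3, had 9548 reads in the same library and 1347 to 1459 in the other 3. Reads of overlapping genes cannot be separated if counting ignored strand. The part of olfactory bulb tissue in the Pla2g3 level was not tested.

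Pla2g16 followed with 32.6 and 28.7 CPM under RGFP109 and 61.2 and 30.6 CPM in vehicle, a log2 difference of -0.58 ± 0.36 (SE) that was -0.0021 without vehicle replicate 1. Pla2g7 had 94.9 and 72.2 CPM against 138 and 73.5 CPM, a log2 difference of -0.34 ± 0.35 (SE) that became 0.18 without that library. Pla2g6 had 22.4 and 19.2 CPM against 31.7 and 19.7 CPM, a log2 difference of -0.31 ± 0.29 (SE) that became 0.07 without it. For each of these members the cortex-labelled vehicle library was the highest of the 4, and the amygdala-labelled libraries of both groups lay close to each other. Without vehicle replicate 1, RGFP109 libraries of both tissue labels meet amygdala-labelled vehicle alone, so these values mix treatment with tissue label. Within the amygdala-labelled pair the log2 ratio was -0.088 for Pla2g16, -0.026 for Pla2g7 and -0.036 for Pla2g6.

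Pla2g4c followed this pattern only in part. The cortex-labelled vehicle library was again the highest, but Pla2g4c was lower under RGFP109 in both labelled tissues. It had 3 and 5 reads under RGFP109 and 24 and 13 reads in vehicle, so the groups did not overlap. Only the vehicle libraries, where it was higher, had enough reads to bring it past the filter. The missing overlap, the unadjusted p and the interval given here are therefore no independent support for a difference. The ratio of RGFP109 to vehicle was 0.139 in the cortex-labelled pair (exact 95% counting interval 0.0269 to 0.459) and 0.331 in the amygdala-labelled pair (0.0923 to 0.988). Its log2 difference of -2.24 ± 0.67 (SE) had an interval from -3.98 to -0.50, with an unadjusted p of 0.0215 and an adjusted p of 1.00 in edgeR. Without vehicle replicate 1 the value was -1.70. It was the 1 member whose groups did not overlap, as lower, beside 13.8% of all tested genes lower and 12.9% higher without overlap.

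Plcb2, which had risen with stroke, was read at 3.48 and 5.55 CPM under RGFP109 and at 4.26 and 6.84 CPM in vehicle. The groups overlapped, and the log2 difference was -0.29 ± 0.42 (SE) with an interval from -1.39 to 0.80. The pair ratios were 0.818 (counting interval 0.567 to 1.17) and 0.812 (0.627 to 1.05). Pla2g4a had 3.36 and 4.71 CPM against 4.71 and 4.02 CPM, a log2 difference of -0.11 with an interval from -1.03 to 0.81. Pla2g15 had 27.6 and 28.6 CPM against 25.1 and 30.6 CPM, a log2 difference of 0.01 with an interval from -0.49 to 0.51.

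**Figure D3:**
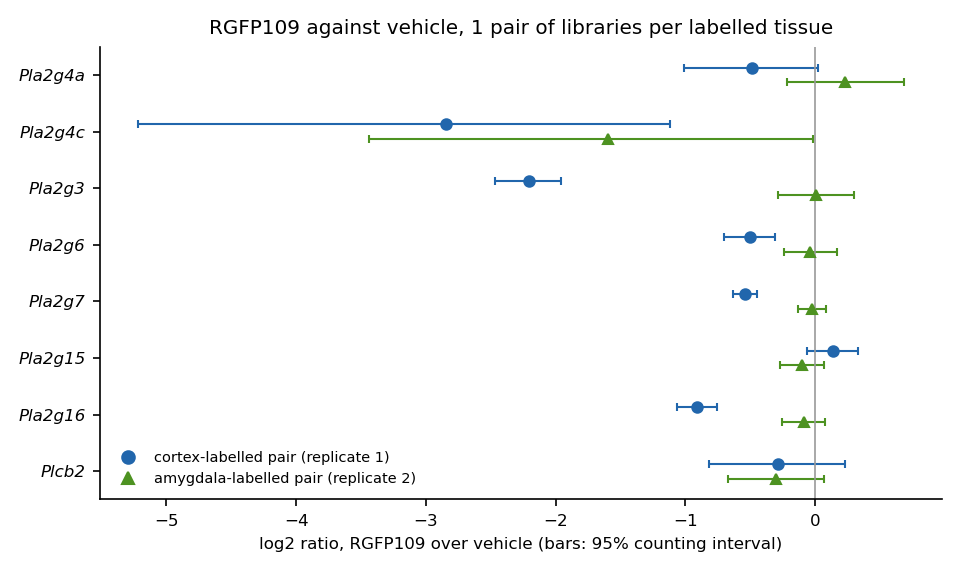
Log2 ratio of RGFP109 to vehicle (x axis) for each phospholipase gene (y axis) in the cortex-labelled pair (circles) and the amygdala-labelled pair (triangles), with bars for exact 95% counting intervals that leave out the spread between animals. Pla2g3, Pla2g6, Pla2g7 and Pla2g16 have intervals wholly below 0 in the cortex-labelled pair and across 0 in the other, and Pla2g4c has both below 0.

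In the 7 pathway lists no gene passed between RGFP109 and vehicle. Closest by p in each list were Pafah1b3 (log2 difference -0.61), Plch1 (1.09), Faah (0.85), Acsl4 (0.41), Ptges (-0.48), Alox8 (1.04) and Ptger2 (-2.01), each with an edgeR adjusted p of 1.00. Microglia markers did not pass either, with a median of 0.07 over 15 genes.

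The amygdala-labelled and cortex-labelled libraries were compared with treatment in the model, 2 libraries a side. No member passed, beside 0% of 17565 genes in either direction in edgeR, where 1069 genes were higher and 538 lower at an unadjusted p under 0.05. DESeq2 passed 211 genes and limma-voom 0, with no member in either. Without overlap, 2 members (Pla2g15 and Plcb2) were higher in the amygdala-labelled libraries beside 21.6% of all genes, and 3 (Pla2g6, Pla2g7 and Pla2g16) were lower beside 22.4%.

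Plcb2 was higher in the amygdala-labelled library within each treatment. The ratio was 1.59 under RGFP109 (exact 95% counting interval 1.15 to 2.24) and 1.61 in vehicle (1.20 to 2.17), and the fitted log2 difference was 0.68 ± 0.31 (SE, edgeR adjusted p 0.620). Of the 15 microglia markers 13 had values above 0 in this comparison, with a median of 0.68. Pla2g7 went the other way, with ratios of 0.761 (0.708 to 0.818) under RGFP109 and 0.532 (0.498 to 0.569) in vehicle and a fitted log2 difference of -0.65 ± 0.22 (SE, unadjusted p 0.0331, edgeR adjusted p 0.505). Plcb2 and Pla2g7, which had both risen after stroke, thus had fitted values of opposite sign between the labelled tissues. For Pla2g16 the ratio was 0.881 (0.783 to 0.993) under RGFP109 and 0.499 (0.450 to 0.553) in vehicle, and for Pla2g6 it was 0.860 (0.744 to 0.994) and 0.622 (0.544 to 0.712). The vehicle ratios rest on the library with olfactory bulb markers. Other marker lists also shifted between the tissue labels. All 10 of 10 cerebral cortex markers lay above 0 (median 1.07), as did 9 of 10 oligodendrocyte markers (median 0.51). Below 0 lay 8 of 10 endothelial markers and 10 of 10 choroid plexus markers. The part of any cell type in the Plcb2 difference was not tested.

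**Figure D4:**
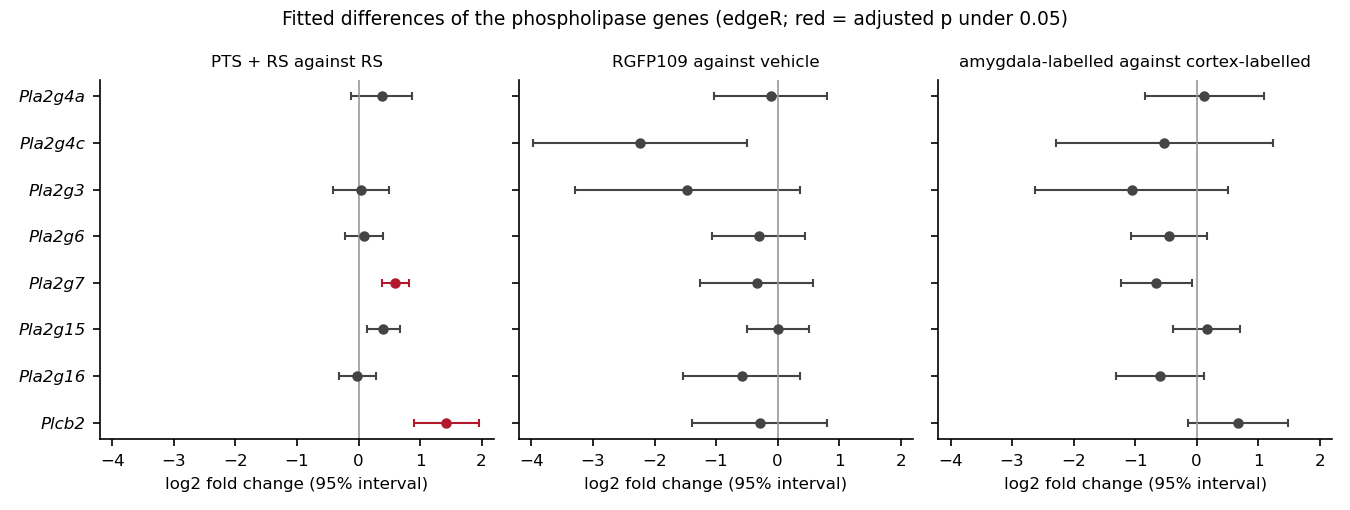
Fitted log2 fold change of each phospholipase gene (x axis, with 95% intervals) in the 3 comparisons, from edgeR. Only Plcb2 (1.43) and Pla2g7 (0.60) between PTS + RS and RS pass the threshold, and the intervals of the other comparisons are wider; Pla2g4c has no point in the first panel because it was not tested there.

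In the 7 lists no gene passed between the tissue labels. The lowest p in each belonged to Pla1a (log2 difference 0.64), Plch2 (-0.89), Mgll (0.52), Lpcat4 (0.57), Ptgs2 (1.19), Alox12 (-2.40) and Ptafr (1.06), with edgeR adjusted p from 0.393 to 0.746.

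Levels per length were compared between members on the FPKM scale. Pla2g7, the PAF hydrolase, was the most abundant member in every group, at 33.6 ± 3.12 FPKM in RS and 50.8 ± 2.66 FPKM in PTS + RS (SD, n = 2). Pla2g15 came next at 7.58 ± 0.286 and 10.001 ± 0.811 FPKM. Pla2g16 stood at 4.62 ± 0.132 and 4.54 ± 0.632 FPKM, and Pla2g6 at 3.92 ± 0.299 and 4.16 ± 0.491 FPKM. These last neighbours overlapped in PTS + RS and were separate in RS.

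Below them, Pla2g3 had 1.41 ± 0.0826 FPKM in RS and 1.45 ± 0.154 FPKM in PTS + RS, and Pla2g4a 0.673 ± 0.0198 and 0.871 ± 0.0727 FPKM (SD, n = 2). Plcb2 moved in this order, from 0.560 ± 0.0782 FPKM and the seventh place in RS to 1.51 ± 0.270 FPKM and the fifth place in PTS + RS, where its range overlapped that of Pla2g3. Pla2g4c was lowest throughout, from 0 to 0.360 FPKM over the 8 libraries. Pla2g4a, the arachidonate-preferring enzyme, thus stayed between 0.525 and 0.923 FPKM in all 8 libraries, and its highest library was 1.76 times its lowest. For Pla2g15 that span was 1.43 times, for Pla2g6 1.63, for Pla2g7 2.11, for Pla2g16 2.31, for Plcb2 3.37 and for Pla2g3 6.95.

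In the RGFP109 group the order was the same as in RS apart from Plcb2 and Pla2g4a, which overlapped at 0.686 ± 0.223 and 0.632 ± 0.151 FPKM. In vehicle, Pla2g15, Pla2g16, Pla2g3 and Pla2g6 overlapped one with the next, as did Plcb2 and Pla2g4a, with Pla2g3 at 5.72 ± 5.09 FPKM (SD, n = 2).

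**Figure D5:**
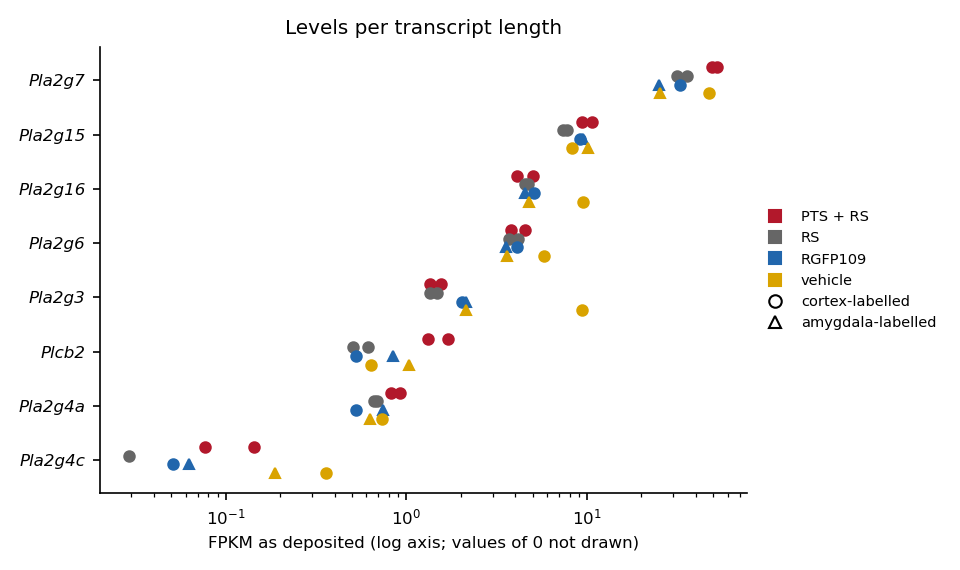
Deposited FPKM (x axis, log scale) of the 8 phospholipase genes (y axis, ordered by median) in the 8 libraries, coloured by group, with triangles for amygdala-labelled libraries. Pla2g7 lies highest (24.9 to 52.6 FPKM) and Pla2g4c lowest, and the value of 0 for Pla2g4c in RS replicate 2 is not drawn.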

How the data were processed

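The 8 members and all gene lists were chosen with earlier results of these data known. Per the labels and the study's methods, the authors aligned reads to GRCm38 with STAR 2.4.0 and counted them per gene with HTSeq 0.6.1, and deposited raw counts together with FPKM values. The labels name a directional library kit and the study's methods another kit, and the strand setting of the counting is not given in the sources used here. Another 8 per-sample columns and the authors' own fold changes and p-values were not used.

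Counts were filtered with filterByExpr, scaled by TMM within each table and tested with edgeR 4.0.16 (quasi-likelihood, R 4.3.3), with Benjamini-Hochberg adjustment over all tested genes. CPM are TMM-scaled, and log2 CPM used a prior count of 2. FPKM served for levels between genes only. Coordinates matched GENCODE M21 for all 8 members. Intervals on ratios of counts are exact binomial, 95%, and cover counting error only. Depth was 15902013 to 21712033 assigned reads, so that members such as Pla2g4c rest on few reads. The biological coefficient of variation was 11.4% in the first table and 32.1% in the second. The latter, from the fit of RGFP109 against vehicle, includes the difference between tissue labels within each group, as do that fit's SEs and intervals. With the tissue label in the model it was 26.5%. In the second table the replicate number coincides with the tissue label, and same-numbered libraries deviated together (r = 0.299 across genes).

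The genes named were all 8 members in each comparison, from each pathway list the genes that passed (at most 4, by p) or else the 1 with the lowest p, and the 3 nearest profiles of each called member; of marker lists, counts and sums. The alternatives were relative log expression size factors, DESeq2 1.42.0, limma-voom 3.58.1, no filter, each library left out, the replicate block and 1 fit over all 8 libraries. Scripts were tested on simulated data.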

Additional observations from a re-analysis of the deposited data

Results flagged for a closer look

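With 1 pair of libraries per tissue label and per treatment, some members had ratios of opposite sign in the 2 pairs, and none of these differences was tested. For RGFP109 over vehicle, the log2 ratio of Pla2g4a was -0.49 in the cortex-labelled pair and 0.23 in the amygdala-labelled pair, with both counting intervals across 0. Pla2g15 had 0.14 and -0.10, also with both counting intervals across 0. Pla2g3 had -2.21 and 0.0064, of which the first rests on the vehicle library with olfactory bulb markers.

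For amygdala-labelled over cortex-labelled libraries, Pla2g4a had a log2 ratio of 0.49 under RGFP109 and -0.23 in vehicle. Pla2g4c had 0.30 and -0.95 on 3 to 24 reads per library. Pla2g3 had 0.069 under RGFP109 and -2.15 in vehicle, which again rests on that vehicle library.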

How the results depend on the processing

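Between PTS + RS and RS, 624 genes passed, against 1835 with no filter, 0 in the fit over all 8 libraries and 371 to 2691 with 1 library left out (371 without RS replicate 2). Members passing were 2, against 0 in the fit over all 8 libraries and 0 to 3 with 1 library left out. For RGFP109 against vehicle, DESeq2 passed 1 gene, and leaving out 1 library gave 0 to 93 genes and 0 to 1 members, the highest without vehicle replicate 2. Between tissue labels, DESeq2 passed 211 genes and no filter 240. The causes were not tested.

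With 1 library left out, log2 differences changed sign for Pla2g3 (-0.069 to 0.14), Pla2g6 (-0.034 to 0.20) and Pla2g16 (-0.17 to 0.12) between PTS + RS and RS. They did so for Pla2g4a (-0.38 to 0.11), Pla2g6 (-0.60 to 0.069), Pla2g7 (-0.72 to 0.18), Pla2g15 (-0.13 to 0.17) and Plcb2 (-0.67 to 0.10) between RGFP109 and vehicle. Between tissue labels, where no test is left with 3 libraries and the value is that of the remaining pair, they did so for Pla2g4a (-0.22 to 0.48), Pla2g4c (-0.85 to 0.20) and Pla2g3 (-2.13 to 0.069). In the fits of RGFP109 against vehicle, leaving out a library also unbalances the tissue labels between the groups.

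With the replicate number as a block, 915 genes (687 higher, 228 lower) passed between PTS + RS and RS, where same-numbered libraries shared only a number (r = 0.0352 across genes), and Plcb2 and Pla2g7 passed as before. The block, which is the tissue label in the other table, passed 0 genes for RGFP109 against vehicle and changed no member's call. The fit between tissue labels without the treatment term also passed 0. Orders of level were the same with TMM-scaled CPM per kilobase. Reads were too few for a test of Pla2g4c after stroke.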
